A study of Mus musculus with 2 samples.

Results

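Ly6c-high Ccr2 monocytes are the inflammatory monocytes that tissues recruit from blood, and in the hearts of mice after sham surgery or pressure overload 284 of 5263 kept CD45+ cells (5.40%) met the rule that defined them. Levels are given as CPM, the reads of a gene per 1000000 reads of a cell. A member had at least 200 CPM of Csf1r, 2000 CPM of Lyz2, 1000 CPM of Ly6c2 and 1000 CPM of Ccr2, and fewer than 2 of the patrolling monocyte genes Ace, Treml4, Cd300e and Adgre4 at 50 CPM or more. Cells with Mki67 of 50 CPM, Cd79a of 200 CPM or Saa3 of 1000 CPM or more were left out, which set aside dividing cells, B cells and Saa3-rich cells. These measured values chose the members, so the levels of these genes, and every comparison of the members with other cells, are a description and carry no test.

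Ly6c-high monocytes leave the bone marrow and then the blood through CCR2, the receptor for the chemokines CCL2 and CCL7, and enter injured tissue. There they lose Ly6C and become macrophages or antigen-presenting cells, which carry MHC class II. Type I and type II interferons switch on antiviral genes in them, and NF-kB drives their inflammatory cytokines. In the heart, such recruited cells add to the resident macrophages that are kept up largely without CCR2.

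The study compared 5 groups of hearts and asked how T cells shape cardiac immune cells early in pressure overload. All mice were males of 8 weeks on a C57BL/6 background, and hearts were taken 1 week after surgery. Wild-type (WT) mice had sham surgery or transverse aortic constriction (TAC), a narrowing of the aorta that overloads the left ventricle. CD3e-/- mice, which lack T cells in the whole body from birth, had sham surgery or TAC. A further group of WT mice had TAC and injections of an antibody against CD8 and is called CD8-depleted TAC. The cells were released by collagenase, separated on a Percoll gradient and selected on CD45 beads, so that cells without CD45 and cells lost in digestion were not measured. The number of hearts behind each group was not given in the sources used here, all groups were tagged with antibodies and sequenced in 1 library, and each group is therefore 1 sample. No p-value could be given, and intervals cover counting error only. Reads were counted rather than molecules, so that the intervals are narrower than the true counting error.

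Values over the 5 groups are given throughout in the order WT sham, CD3e-/- sham, WT TAC, CD3e-/- TAC and CD8-depleted TAC. The members numbered 13, 18, 71, 94 and 88 cells, with median depths of 99853, 112345, 119443, 151422 and 113170 reads. Members of CD3e-/- TAC hearts were thus the deepest, with a median of 5044.5 genes against 3864 to 4472.5 in the other groups. The targeted gene Cd3e was at 17.8, 3.73, 10.8, 5.64 and 13.6 CPM over all kept cells, with a read in 69 of 1000, 42 of 835, 103 of 1615, 83 of 919 and 51 of 894 cells. Its level was thus lowest in both CD3e-/- groups, but cells with a read were no rarer in CD3e-/- TAC than in WT TAC. Among the members, Cd3e reads were found in 2 of 71 cells of WT TAC, 14 of 94 of CD3e-/- TAC and 2 of 88 of CD8-depleted TAC. Whether these reads lie outside the deleted part was not tested. Cd3g, which encodes another CD3 chain, was at 45.6, 0.555, 17.5, 0.0661 and 22.5 CPM, near 0 in both CD3e-/- groups. Cd8b1 was at 7.73, 0, 10.7, 0 and 7.74 CPM and Cd8a at 9.81, 0.979, 7.40, 0.558 and 6.55 CPM. The reads of Cd8a and Cd8b1 in the CD8-depleted group were therefore close to those of the other WT groups at this depth. The study also counted CD4+ and CD8+ T cells of hearts by flow cytometry, and it refers to the deletion of CD8+ T cells. In the reads of this library, directions drawn from this group rest on its label. No cell barcode was shared between the groups among 5355 barcodes, and of 40 columns called doublets by the deposited processing 2 met the rule and were left out. These columns are a smaller share than the study's methods name, and doublets within a group carry 1 hashtag, so that doublets may remain among the kept cells.

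The members carried the markers of the Ly6c-high label. Plac8, a cysteine-rich protein of Ly6c-high cells, was at 2679, 3617, 3075, 3884 and 4063 CPM in the 5 groups. Hp, which encodes haptoglobin, was at 595, 637, 327, 315 and 346 CPM, and Vcan, which encodes the matrix proteoglycan versican, at 340.2, 382, 286, 249 and 289.9 CPM. For comparison, 3 other populations were set out by fixed limits, namely 261 patrolling cells, 948 Ccr2-high Ly6c2-low cells and 1248 Ccr2-low cells. Each was pooled over sham and TAC hearts unless values for the groups are given. Vcan was at 96.1, 31.3 and 15.2 CPM and Hp at 291, 26.9 and 12.1 CPM in these, in this order. Plac8 was at 3537 CPM in the patrolling cells, so that it did not part them from the members, but at 189.6 and 57 CPM in the Ly6c2-low cells. Hp in the patrolling cells lay close to its level in the members of the TAC groups. Of these 3 markers, only Vcan thus parted the patrolling cells from the members of every group. Of the members, 226 (79.6%) had none of the 4 patrolling genes at the limit and 58 (20.4%) had 1. The limit of Ly6c2 ran through a continuum. The 23 cells just outside it, between 800 and 1000 CPM, had 2424 CPM of Plac8 and 491 CPM of Hp, and the 29 members just inside it had 3076 and 343 CPM.

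Ly6C is encoded by a pair of near-identical neighbours, Ly6c1 and Ly6c2, and reads can be credited to the wrong copy. The coding sequences of both genes, read from the GENCODE vM1 transcripts, were 97.7% identical over 396 bases, with 9 differences. Of these, 6 lay in the first 90 coding bases, which encode the signal peptide and the start of the protein. They are shown here with the differing bases in capitals. Where the reads of this library lay along both genes was not tested.
Ly6c2: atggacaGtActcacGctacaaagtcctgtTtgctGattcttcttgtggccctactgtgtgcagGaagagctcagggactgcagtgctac
Ly6c1: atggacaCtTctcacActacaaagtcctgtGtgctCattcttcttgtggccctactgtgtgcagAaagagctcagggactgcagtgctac
Of all 60-base windows of the Ly6c2 coding sequence, 42.1% occurred unchanged in Ly6c1, and none in Ly6g. Reads given to Ly6c1 amounted to 0.790% to 0.946% of those given to Ly6c2 in the members, against 19.1% in Ccr2-high Ly6c2-low cells and 29.4% in Ccr2-low cells. In patrolling cells, for which no limit of Ly6c2 was set, it was 0.888%, within the range of the members. Both Ly6c2-low populations were chosen for less than 100 CPM of Ly6c2, which lowers the reads that Ly6c1 is set against. Their larger Ly6c1 share thus follows at least in part from this choice.

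Ly6c-high Ccr2 monocytes made up a larger share of the CD45+ cells after TAC than after sham surgery, and a larger share in both groups with altered T cells than in WT TAC. They were 1.30% of kept cells in WT sham hearts (95% Clopper-Pearson interval 0.694% to 2.21%) and 2.16% in CD3e-/- sham hearts (1.28% to 3.39%). In WT TAC hearts the share was 4.40% (3.45% to 5.51%), in CD3e-/- TAC hearts 10.2% (8.34% to 12.4%) and in CD8-depleted TAC hearts 9.84% (7.97% to 12%). The intervals of both of the latter lay above that of WT TAC and overlapped each other. Among cells with the Csf1r and Lyz2 levels of monocytes and macrophages, 3384 in all, the shares were 2.30%, 3.8%, 6.53%, 14.3% and 14.6%. In total, 253 of the 284 members (89.1%) came from TAC hearts. A share gives no cell number per heart, and the spread between animals was not measured.

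**Figure D1:**
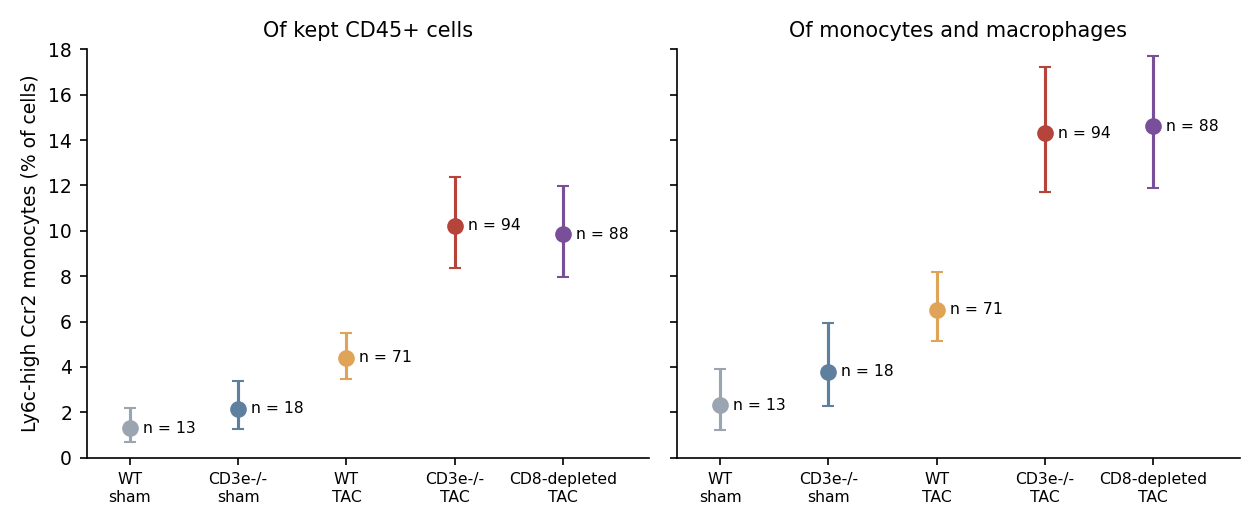
Share of Ly6c-high Ccr2 monocytes in percent of kept CD45+ cells and of monocytes and macrophages, for each of the 5 groups, with exact 95% intervals for counting error. The 3 TAC groups lay above both sham groups, and CD3e-/- TAC and CD8-depleted TAC, at 10.2% and 9.84% of kept cells, lay above WT TAC at 4.40%.

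A narrower rule lowered all shares and exchanged the places of both groups with altered T cells. With Ly6c2 of at least 2000 CPM, which 191 members met, the shares of kept cells in the TAC groups were 2.85%, 6.86% and 7.05%. Under all 8 alternative rules and both denominators, each TAC group lay above each sham group, and CD3e-/- TAC and CD8-depleted TAC lay above WT TAC. The order between CD3e-/- TAC and CD8-depleted TAC differed with the rule and the denominator.

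Gene expression was then compared among the members of the 3 TAC groups, each of which held more than 20 cells. A group level was the summed reads of its members per 1000000 reads, and a gene was counted where the log2 ratio of its levels, with 10 CPM added to both, was at least 1 in size, that is 2-fold, among genes with 50 CPM or more in either group. Few genes passed. Between CD3e-/- TAC and WT TAC, 52 of 3865 genes (1.35%) lay past 2-fold, of which 21 (0.543%) were higher and 31 (0.802%) lower in CD3e-/- TAC. A scaling by the trimmed mean of M values gave 25 higher and 24 lower. Between CD8-depleted TAC and WT TAC, 35 of 3871 genes (0.904%) lay past this limit, with 11 higher (0.284%) and 24 lower (0.62%). Between CD3e-/- TAC and CD8-depleted TAC these were 40 of 3820 genes (1.05%), with 19 higher (0.497%) and 21 lower (0.55%). The first pair of comparisons shared the WT TAC cells. The sham groups, with 13 and 18 members, are given as values only.

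The summed level of interferon response genes was higher in the members than in the 3 other populations, and higher in each TAC group than in each sham group, which was not so for every gene of the list. Type I interferon is sensed by the receptor IFNAR, and the transcription factor complex that it activates binds the interferon-stimulated response element. The core of that element, searched as GAAANNGAAA on either strand within 250 bases before the start of transcription, occurred in 16 of 37 interferon response genes with a promoter window (43.2%) and in 936 of 27025 promoters in all (3.46%). Windows were those of RefSeq genes on GRCm38.p6, and 4 of them are shown in the direction of transcription, with the matched letters in capitals, because these genes carry the levels given next. Isg15 lay at chr4:156200845-156200926 on the minus strand, Ifit1 at chr19:34640755-34640843 on the plus strand, Ifit3 at chr19:34583343-34583446 on the plus strand and Rsad2 at chr12:26456533-26456602 on the minus strand.
Isg15: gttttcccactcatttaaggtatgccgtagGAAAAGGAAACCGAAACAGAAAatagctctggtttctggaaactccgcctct
Ifit1: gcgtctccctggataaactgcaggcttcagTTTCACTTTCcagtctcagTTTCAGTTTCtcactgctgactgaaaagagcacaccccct
Ifit3: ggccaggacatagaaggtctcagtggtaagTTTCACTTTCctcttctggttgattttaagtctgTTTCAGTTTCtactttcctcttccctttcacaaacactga
Rsad2: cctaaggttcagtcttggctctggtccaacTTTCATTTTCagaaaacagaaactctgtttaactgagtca
In Isg15, 3 matches overlapped between 56 and 78 bases before the start. The motif was found in 2 of 26 promoters of monocyte identity genes and in none of the 21 promoters of inflammatory and NF-kB genes. A match describes the letters only and shows no binding.

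Isg15, a ubiquitin-like protein that interferon induces, was at 130.2, 159, 512, 731 and 789 CPM in the members of the 5 groups. It was at 195, 82.8 and 67.2 CPM in patrolling, Ccr2-high Ly6c2-low and Ccr2-low cells. Every TAC group thus held more Isg15 reads than either sham group and than the 3 other populations, which pooled sham and TAC hearts. Both sham groups of members lay below the pooled patrolling cells. Irf7, the transcription factor that amplifies the interferon response, was at 125, 425, 735, 1094 and 944 CPM, again with both sham groups below all TAC groups. Slfn4, a schlafen protein of activated myeloid cells, was at 39.9, 27.2, 567, 599 and 744 CPM. Oasl1, a relative of the antiviral 2′-5′ oligoadenylate synthetases, was at 0, 8.22, 117, 137 and 167 CPM. Of the nucleic acid sensors, Ifi204 was at 506, 779, 997, 1176 and 1372 CPM and Zbp1 at 147, 304, 286, 333 and 482 CPM, both highest in CD8-depleted TAC. Zbp1 in CD3e-/- sham was no lower than in WT TAC. Ifit2 was at 79.1, 101, 387, 417 and 355 CPM and Mx1 at 21.6, 72.2, 232, 241 and 319.9 CPM, where the 3 TAC groups lay close together. Ifit1 and Ifit3, which belong to the same family as Ifit2, were at 51.9, 37.2, 225, 203 and 274 CPM and 179.7, 119.8, 321, 277 and 349.9 CPM. The median member had no read of Rsad2 in any group, and 1 cell gave all Rsad2 reads of WT sham.

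Summed over 48 interferon response genes, the level was 9035, 11959, 17701, 20543 and 22072 CPM in the 5 groups, against 8984, 4653 and 4341 CPM in patrolling, Ccr2-high Ly6c2-low and Ccr2-low cells. The median member had 5395, 8665, 10483, 18161 and 18209.8 CPM, so that the typical cell of CD3e-/- TAC and CD8-depleted TAC hearts lay above that of WT TAC by more than the sums did. The quartiles over cells were 5422 to 25228 CPM in WT TAC, 9456 to 29232 CPM in CD3e-/- TAC and 10686 to 32493 CPM in CD8-depleted TAC, and they overlapped. Members with at least 10000 CPM of the list were 30.8%, 38.9%, 50.7%, 68.1% and 78.4%, against 20.7% of patrolling, 8.54% of Ccr2-high Ly6c2-low and 6.73% of Ccr2-low cells. The interval of WT TAC (38.6% to 62.8%) lay below that of CD8-depleted TAC (68.4% to 86.5%) and overlapped that of CD3e-/- TAC (57.7% to 77.3%). Gene by gene the differences were small. Against WT TAC, none of the 48 genes was 2-fold higher and 1 lower in CD3e-/- TAC (0.543% and 0.802% of all genes), with 37 of 48 ratios above 0 and a median log2 ratio of 0.21, and none was past 2-fold in CD8-depleted TAC, with 39 above 0 and a median of 0.30. The medians over all genes were -0.02 and -0.01.

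The gene of the list that lay lower was Cxcl10, which encodes a chemokine for T cells that both interferon and NF-kB induce. It was at 314, 389, 697, 201 and 506 CPM, lower in CD3e-/- TAC than in both sham groups, a log2 ratio of -1.74 between CD3e-/- TAC and WT TAC. The median member had no Cxcl10 read in any group, and 1 cell gave 92.6% of the WT sham reads and between 18.1% and 25.7% of those of each TAC group. Interferon-gamma-induced genes had median log2 ratios of 0.34 and 0.35 for CD3e-/- TAC and CD8-depleted TAC against WT TAC. Of 18 genes of that list over the filter, 1 was past 2-fold higher in CD3e-/- TAC than in WT TAC, against 0.543% of all genes. It was Cxcl9, a chemokine that interferon-gamma induces, and 1 cell gave 95.8% of its CD3e-/- TAC reads.

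The depth of a cell moved little with its interferon level. Over the 71, 94 and 88 cells of the TAC groups, which share a library, the Spearman correlation of the summed interferon list with the reads of a cell was -0.05 in WT TAC, -0.05 in CD3e-/- TAC and -0.08 in CD8-depleted TAC. The correlation of the list with Ly6c2, a gene of the rule, was 0.35, 0.43 and 0.50 in these groups. By definition, the Ly6c2-low and Ccr2-low cells had less than 100 CPM of Ly6c2. The part of the Ly6c2 limit in the interferon levels was not tested. In patrolling cells the list summed to 5909, 4162, 11680.3, 9039.6 and 8984 CPM in the 5 groups, and in Ccr2-high Ly6c2-low cells to 2976, 3229, 4754, 5996 and 5862 CPM. The TAC values lay above the sham values in both of these populations as well.

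**Figure D2:**
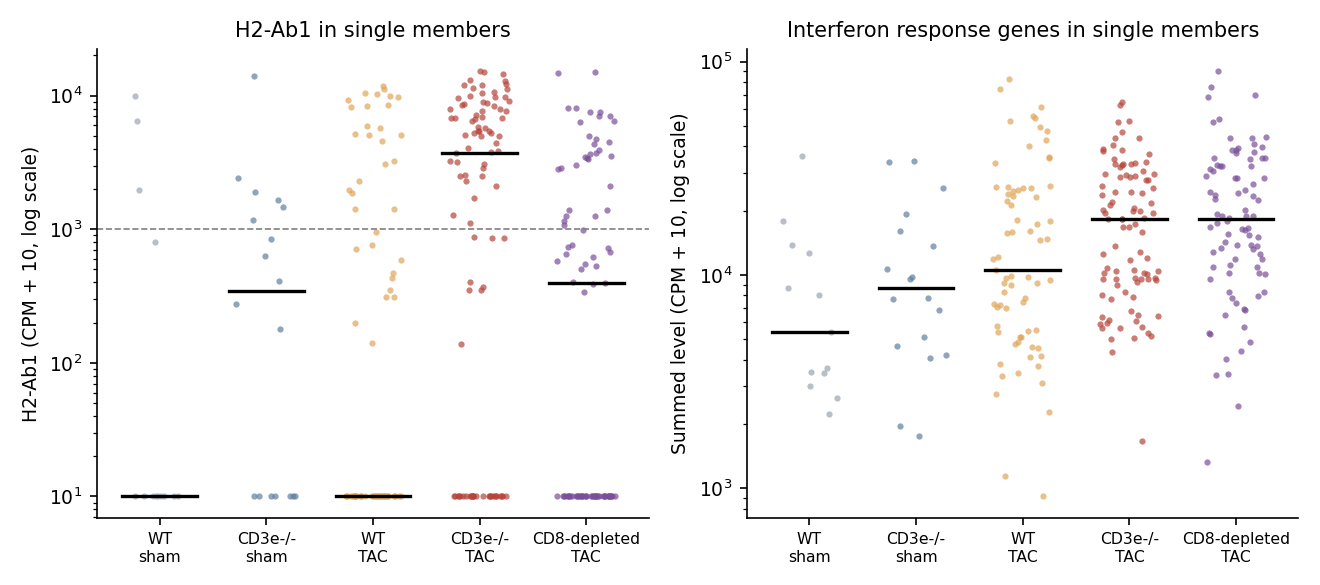
Each point is 1 member, by group, with H2-Ab1 on the left and the sum of 48 interferon response genes on the right, in CPM with 10 added, on log scales; bars are medians over cells and the dashed line is 1000 CPM of H2-Ab1. Many cells of CD3e-/- TAC and CD8-depleted TAC lay above 10000 CPM of interferon genes (68.1% and 78.4%), while H2-Ab1 of 1000 CPM or more was reached by 63.8% of CD3e-/- TAC members and 35.2% of CD8-depleted TAC members.

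MHC class II genes, whose products present antigen to CD4+ T cells, were highest in the members of CD3e-/- TAC hearts. H2-Ab1, the beta chain of I-A, was at 1305, 960, 2472, 4539 and 2033 CPM. H2-Aa, its alpha chain, was at 1382, 1048, 2614, 5206 and 2488 CPM, and H2-Eb1, the beta chain of I-E, at 747, 468, 1645, 3254 and 1414 CPM. Cd74, the invariant chain that guides class II molecules through the cell, was at 4308, 3631, 6781, 11609.8 and 6085 CPM. In each of these genes CD3e-/- TAC was highest, and CD8-depleted TAC lay near WT TAC. Ciita, the transactivator that class II genes require, was at 15.2, 114, 121, 223 and 135 CPM.

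Class II promoters carry a conserved module whose Y box is an inverted CCAAT, bound by the factor NF-Y. The letters CCAAT, on either strand, occurred in all 7 class II genes with a window and in 10133 of 27025 promoters (37.5%), so that the match is common. The interferon motif was in none of the 7, in contrast to Isg15 and Ifit1 above. H2-Eb1 at chr17:34305778-34305866 on the plus strand and H2-Aa at chr17:34287837-34287901 on the minus strand of GRCm38.p6 are shown with CCAAT or its reverse complement in capitals.
H2-Eb1: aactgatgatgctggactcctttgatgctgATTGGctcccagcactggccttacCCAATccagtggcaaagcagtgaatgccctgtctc
H2-Aa: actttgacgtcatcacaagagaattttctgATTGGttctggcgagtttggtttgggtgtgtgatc

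All 7 class II genes over the low-value filter lay higher in CD3e-/- TAC than in WT TAC, with a median log2 ratio of 0.83 and none past 2-fold. Against CD8-depleted TAC, all 7 lay higher with a median of 0.93, and 3 passed 2-fold, against 0.497% of all genes, which were H2-Aa (1.06), H2-Eb1 (1.2) and H2-Ab1 (1.15). Between CD8-depleted TAC and WT TAC the median was -0.07, with 2 of 7 above 0. Over all alternatives the median of CD3e-/- TAC against WT TAC stayed between 0.55 and 1.02. The list sum was 8309, 6817, 14319, 25935 and 12883 CPM in the 5 groups, against 13297, 49561 and 23903 CPM in patrolling, Ccr2-high Ly6c2-low and Ccr2-low cells. The Ccr2-high Ly6c2-low cells did not show this order, with 57482, 55546, 48438, 43379.8 and 46112 CPM over the groups and CD3e-/- TAC lowest. In Ccr2-low cells the sum was 33146, 45719, 15753, 14861 and 18516 CPM, with both sham groups highest. Dendritic-cell-like monocyte genes, a list that also holds H2-Ab1, Cd74 and Ciita, had median log2 ratios of 0.80 and -0.16 in CD3e-/- TAC and CD8-depleted TAC against WT TAC. The former rests on 6 genes and ranged from 0.11 to 0.85 over the alternatives.

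**Figure D3:**
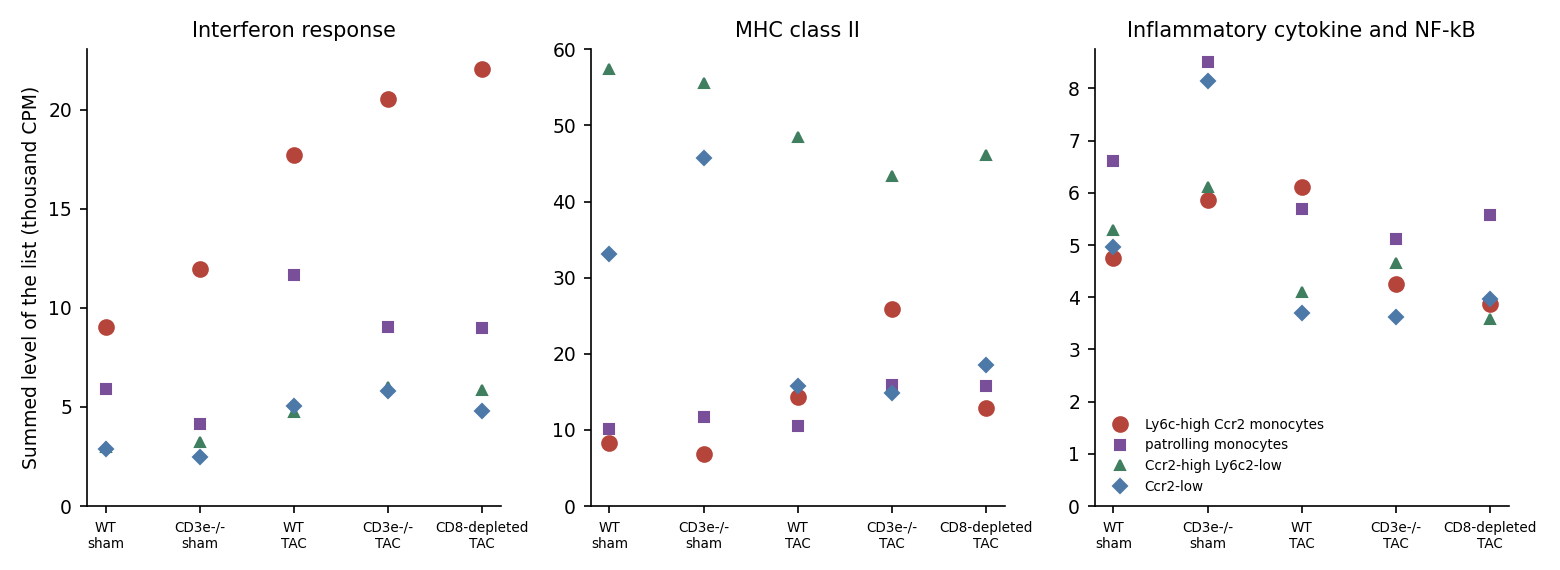
Summed level of interferon response, MHC class II, and inflammatory cytokine and NF-kB genes, in 1000 CPM, in the members and in patrolling, Ccr2-high Ly6c2-low and Ccr2-low cells of the 5 groups. The members were highest in interferon genes in each group, reaching 22072 CPM in CD8-depleted TAC, and Ccr2-high Ly6c2-low cells were highest in class II in each group.

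Cells varied widely in class II. The median member had 0, 332, 0, 3742 and 384 CPM of H2-Ab1, and the quartiles were 0 to 2686 CPM in WT TAC, 0 to 7874 CPM in CD3e-/- TAC and 0 to 2909 CPM in CD8-depleted TAC. The typical WT TAC member thus had no read of it and the median CD3e-/- TAC member had 3742 CPM. At least 1000 CPM of H2-Ab1 was reached by 3 of 13, 6 of 18, 23 of 71, 60 of 94 and 31 of 88 members, or 23.1%, 33.3%, 32.4%, 63.8% and 35.2%. The interval of CD3e-/- TAC (53.3% to 73.5%) lay above those of WT TAC (21.8% to 44.5%) and CD8-depleted TAC (25.3% to 46.1%). Between 500 and 2000 CPM, near the limit, lay 2, 6, 8, 6 and 16 cells. T cells, which in mice lack class II, were taken as the background of free RNA. Of 94 cells with at least 200 CPM of Cd3g and less Csf1r than the rule asks, at a median of 92519 reads, 18.1% reached 1000 CPM of H2-Ab1 (10.9% to 27.4%), against 43.3% of all members. This interval overlapped those of WT TAC and CD8-depleted TAC and lay below that of CD3e-/- TAC. The summed level in these T cells was 2273 CPM, above both sham groups and CD8-depleted TAC, close to WT TAC and below CD3e-/- TAC. By this share and this sum, only CD3e-/- TAC stood clear of these T cells. Their median H2-Ab1 was 0 CPM, so that the reads lay in a part of the cells, and doublets among them were not tested. Cd3g had a read in only 3 kept cells of CD3e-/- sham and 1 of CD3e-/- TAC, so that nearly all these T cells came from WT mice. In WT TAC, members that reached the H2-Ab1 limit had medians of 6596 CPM of H2-Aa, 16622.5 CPM of Cd74 and 198 CPM of Ciita. In CD3e-/- TAC such members had 8042, 16892 and 281 CPM of these genes, and in CD8-depleted TAC 4725.5, 12432 and 224 CPM. The medians of the other members were 0 CPM in each case. Whether class II in WT TAC and CD8-depleted TAC was background was not tested. With every cell thinned to 38944 reads, 25.6% of those T cells and 57.9% of the members had a H2-Ab1 read. Members of CD3e-/- TAC were also the deepest, and at this fixed depth the shares at 1000 CPM of H2-Ab1 were 32.4% in WT TAC, 65.2% in CD3e-/- TAC and 34.1% in CD8-depleted TAC.

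Among the most strictly Ly6c-high members, with at least 2000 CPM of Ly6c2, 12 of 46 WT TAC cells (26.1%), 43 of 63 CD3e-/- TAC cells (68.3%) and 23 of 63 CD8-depleted TAC cells (36.5%) reached the H2-Ab1 limit. The distance between CD3e-/- TAC and WT TAC was thus no smaller among these cells. In patrolling cells the share with the H2-Ab1 limit was 21.4%, 31.2%, 32.9%, 41.6% and 45.2% over the 5 groups, where CD3e-/- TAC did not stand above CD8-depleted TAC.

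The members were then divided at 1000 CPM of H2-Ab1 within each TAC group, a division chosen after the values were seen and given as a description. Medians are for members over against members under this limit, for WT TAC (23 and 48 cells), CD3e-/- TAC (60 and 34) and CD8-depleted TAC (31 and 57). Lyz2, which encodes lysozyme, was at 7145 against 20360.1, 6912 against 18691 and 7398 against 18339.6 CPM. F13a1, coagulation factor XIII of monocytes, was at 103 against 907, 52.2 against 786 and 77.4 against 677 CPM. Vcan was at 0 against 168, 0 against 395 and 0 against 196 CPM. In all 3 groups, the members with class II had less of these monocyte genes. They also had more Apoe, the lipid carrier of macrophages, at 8783 against 3527, 9179 against 2049 and 5283 against 3694 CPM, and more C1qb of complement C1q, at 811 against 0, 568 against 0 and 550.4 against 0 CPM. Ly6a, also known as Sca-1, was at 640 against 0, 1829 against 0 and 1019 against 0 CPM.

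Ly6c2, which the rule used, was at 2179 against 2587, 3491 against 2649.6 and 3340.5 against 2938 CPM. Over the cells of WT TAC, CD3e-/- TAC and CD8-depleted TAC, the Spearman correlation of the class II sum with the monocyte identity sum, which holds Lyz2 and Ly6c2, was -0.53, -0.65 and -0.63. The correlation of interferon genes with class II genes was 0.15, 0.08 and 0.01. The summed interferon list was at 15766 against 9184, 18882 against 10579 and 16715 against 22400.5 CPM in members over and under the limit, higher with class II in WT TAC and CD3e-/- TAC and lower in CD8-depleted TAC. The reads per cell were 139680 against 118448, 156958 against 149106 and 108575 against 117009. Dendritic cell markers were at a median of 0 on both sides. The B cell list moved with the division, at a median of 123 against 0, 234 against 0 and 150.5 against 0 CPM. Most of it was Ighm, the heavy chain of IgM, which had a read in 13 of 23 against 20 of 48, 40 of 60 against 14 of 34 and 20 of 31 against 24 of 57 members. Cd79a, which the rule limited, had a read in at most 1 cell on either side, and Igkc had none. The part of B cell RNA in the class II values was not tested.

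MHC class I genes, which present peptides to CD8+ T cells, lay slightly higher in both groups with altered T cells. All 14 listed genes lay above 0 in CD3e-/- TAC against WT TAC, with a median log2 ratio of 0.48, and 13 of 14 in CD8-depleted TAC, with 0.40, and none was past 2-fold. B2m, the light chain of class I, was at 4301, 4285, 5027, 6232 and 5981 CPM and H2-K1, a heavy chain, at 1513, 1695, 1665, 2209 and 1901 CPM. In both genes all TAC groups with altered T cells lay above WT TAC.

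**Figure D4:**
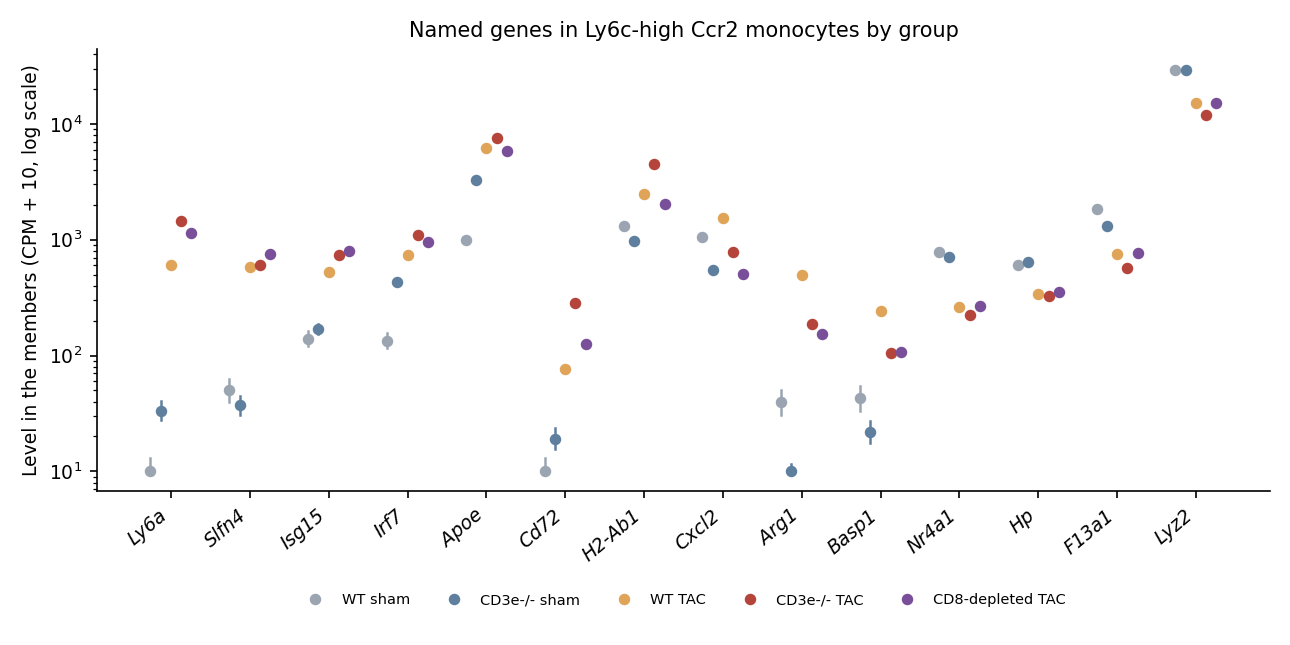
Levels of named genes in the members of the 5 groups, in CPM of summed reads with 10 added, on a log scale; lines are exact 95% Poisson intervals, hidden behind the points where narrow. Ly6a and Isg15 were low in both sham groups and higher in the 3 TAC groups, and H2-Ab1 was highest in CD3e-/- TAC at 4539 CPM.

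Several genes of blood monocytes were higher in both sham groups than in any TAC group. Lyz2 was at 29079.6, 29366, 15283, 11816 and 15105 CPM, F13a1 at 1849, 1313, 749, 565 and 751 CPM and Hp, given above, was also highest in both sham groups. In Lyz2, F13a1 and Hp every sham value lay above every TAC value. Nr4a1, an immediate early gene that patrolling monocytes need, was at 776, 698, 252, 215 and 257 CPM, and Klf4, a transcription factor of the monocyte lineage, at 732, 730.4, 426, 335 and 382 CPM. Plac8, given above, ran otherwise, with WT sham below every TAC group. The listed genes of monocyte identity summed to 58328, 62664, 43204, 41641 and 46215 CPM, of which Lyz2, a gene of the rule, was the largest part. Without Lyz2 the sums were 29249, 33299, 27921, 29825 and 31110.0 CPM, where WT sham lay below CD3e-/- TAC and CD8-depleted TAC. Without Lyz2, Ly6c2 and Ccr2, all used by the rule, they were 24037, 24784, 21721, 22074 and 23027 CPM. With 13 and 18 sham members, these orders rest on few cells, and 1 WT sham cell gave 14.6% of the Lyz2 reads of its group.

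Ly6a had the widest gap in the other direction among the genes outside the rule. It was at 0, 23.4, 595, 1447 and 1134 CPM, with no read in 13 WT sham cells, where 3 reads correspond to 2.4 CPM. Of the TAC members 56.5% had a Ly6a read, so that 13 cells without a read leave the WT sham level uncertain. In patrolling, Ccr2-high Ly6c2-low and Ccr2-low cells Ly6a was at 202, 78.5 and 26.3 CPM. Against WT TAC, its log2 ratio was 1.27 in CD3e-/- TAC, past 2-fold under each alternative, and 0.92 in CD8-depleted TAC. Spon1, which encodes the matrix protein F-spondin, was at 0, 0.432, 76.3, 149 and 87 CPM, and Fgl2, a secreted fibrinogen-like protein, at 361, 343, 443, 754 and 809 CPM. Other genes outside the rule that were low in both sham groups, chosen after their values were seen, were Lgmn, the lysosomal protease legumain, at 106, 146, 849, 892 and 748 CPM, Ms4a6d at 171, 235, 792, 838 and 901 CPM and Sdc4, the proteoglycan syndecan-4, at 0, 0, 113, 151 and 85.4 CPM. Those high in both sham groups included Csrnp1, an immediate early nuclear protein, at 552, 779.7, 169, 134 and 164 CPM, Pde4b, which breaks down cyclic AMP, at 509.5, 672, 167, 98 and 94.4 CPM, and Ccdc88c at 165, 168, 15.8, 17.2 and 34.5 CPM. Apoe was at 976, 3252, 6235, 7529.6 and 5775 CPM, lowest in the sham groups.

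Inflammatory cytokine and NF-kB genes lay lower in both groups with altered T cells than in WT TAC. Of 22 genes over the filter, 4 were 2-fold lower and none higher in CD3e-/- TAC, with a median log2 ratio of -0.39, against 0.802% of all genes lower. In CD8-depleted TAC 6 were lower and none higher, with -0.40, against 0.62% of all genes lower. Between the latter groups 1 of 20, Ptgs2, was lower in CD3e-/- TAC, against 0.55% of all genes, and the median was 0.03. The 4 were Cxcl3, Tnfaip3, Rel and Clec4e, and Cxcl2 and Nfkbia joined them in CD8-depleted TAC. Cxcl2, a chemokine for neutrophils, was at 1051, 537, 1516, 767 and 497 CPM, with log2 ratios of -0.97 and -1.59 against WT TAC. Tnfaip3, the NF-kB inhibitor A20, was at 162, 226, 119, 51.3 and 32.7 CPM (-1.07 and -1.59). Rel, the NF-kB subunit c-Rel, was at 194, 253, 160, 73.6 and 62.3 CPM (-1.02 and -1.23), and Nfkbia, which encodes the inhibitor IkB-alpha, at 403, 641, 699.6, 469.9 and 336 CPM. Cxcl3, a neutrophil chemokine like Cxcl2, was at 13.6, 7.78, 136, 6.98 and 5.17 CPM, and 1 cell gave 77.9% of the WT TAC reads. Clec4e, the receptor Mincle for mycobacterial glycolipids, was at 97.4, 195, 287, 137 and 127 CPM. These 6 genes were picked for lying 2-fold below WT TAC in at least 1 comparison. That WT TAC was the highest of the TAC groups in all 6 follows largely from this choice.

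The typical cells differed less than the sums. The list summed to 4749, 5871, 6108, 4257 and 3875 CPM, while the median member had 4099.9, 4077, 4012, 3776 and 3345 CPM, which lay closer together. Il1b, the precursor of interleukin-1 beta, was at 739.5, 1535, 975, 634 and 728 CPM and highest in CD3e-/- sham. Tnf was at 3.99, 53.6, 58.3, 48.7 and 38.2 CPM, and Il6 was at most 12.5 CPM in all groups but WT sham, where 1 cell gave all its reads. Enzymatic digestion induces such genes in myeloid cells, and its part in these values was not tested. Dissociation and immediate early genes had medians of -0.12 and 0.04 against WT TAC.

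**Figure D5:**
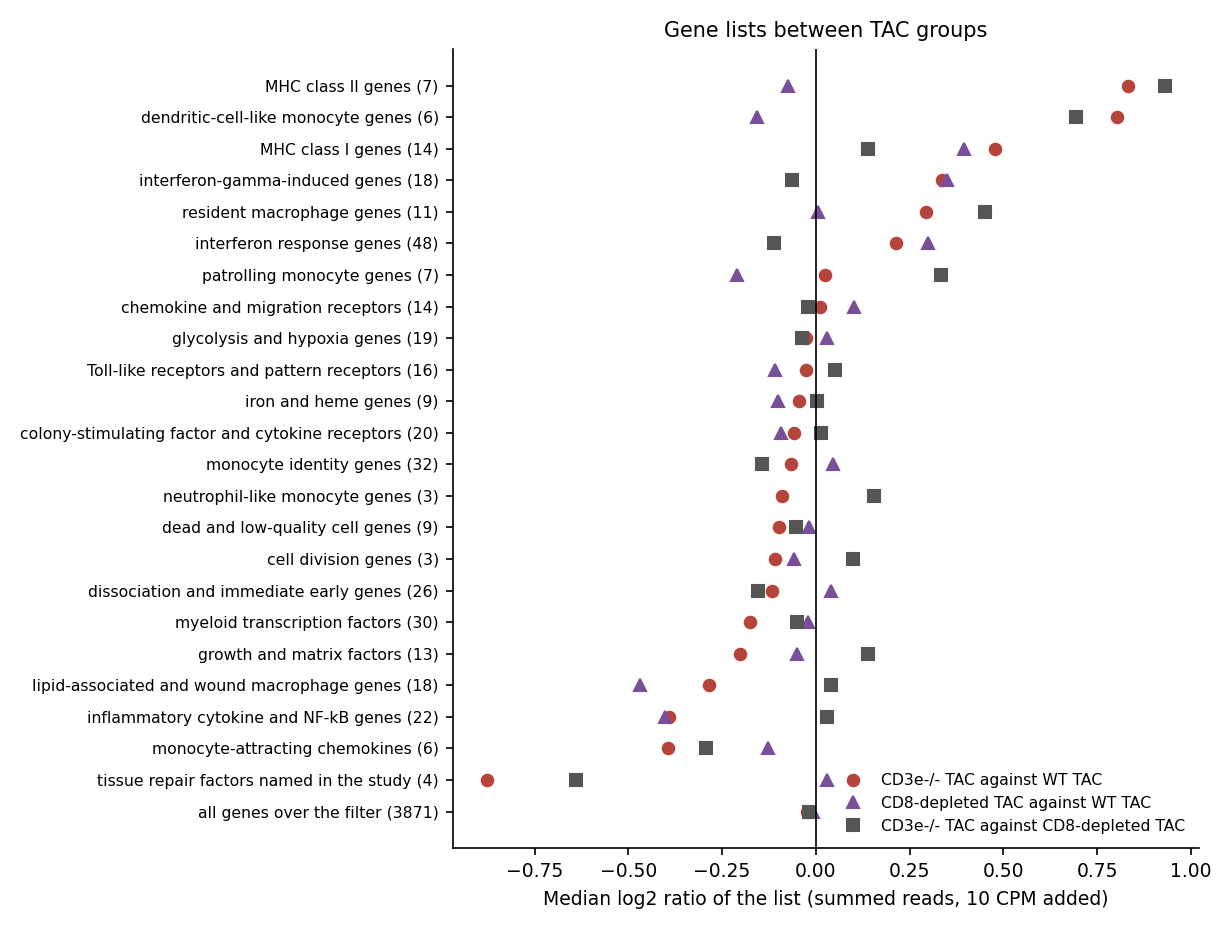
Median log2 ratio of each gene list among the members for the 3 comparisons of TAC groups, with 10 CPM added and the number of genes over the low-value filter in brackets. MHC class II genes lay near 0.83 and 0.93 for CD3e-/- TAC against WT TAC and against CD8-depleted TAC, and inflammatory and NF-kB genes near -0.39 and -0.40 for both comparisons with WT TAC.

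Of the chemokines that attract further monocytes, Ccl2 and Ccl7 were lower in CD3e-/- TAC than in the other TAC groups. Ccl2, the main ligand of CCR2, was at 626, 712, 1076, 741 and 1224 CPM, and Ccl7, a second ligand, at 24, 0, 304, 82.9 and 179 CPM. Against WT TAC, Ccl7 had a log2 ratio of -1.76 in CD3e-/- TAC and -0.73 in CD8-depleted TAC, but only 17.8% of the TAC members had a read of it. The 6 listed chemokines over the filter had medians of -0.39 and -0.13, with 1 and 2 of 6 above 0, and the sign of the latter median changed under 3 alternatives. In CD3e-/- TAC 1 of the 6 was past 2-fold lower, against 0.802% of all genes, and in CD8-depleted TAC none. Ccl12 was at 0, 86.1, 327, 304 and 323 CPM and Ccl9 at 928, 1139.5, 1232, 1030 and 1248 CPM, with little difference among the TAC groups. Of the receptors, Ccr2, which the rule used, was at 3186, 3308, 3116, 3293 and 3486 CPM, Cx3cr1, the fractalkine receptor, at 668, 435, 399, 407 and 344 CPM, and Ccr1, a receptor for CCL3 and CCL5, at 199.7, 123, 269, 306 and 402 CPM. The integrin subunits Itga4 and Itgal, which bind vessel wall ligands, were at 640.5, 897, 389.9, 319.6 and 419.6 CPM and 209, 180.3, 118, 115 and 89.6 CPM, both highest in the sham groups.

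Growth, matrix and repair factors differed between the TAC groups gene by gene. Thbs1, thrombospondin-1, which activates latent TGF-beta, was at 694, 621, 1112, 536 and 807 CPM. Fn1, which encodes fibronectin, was at 2727, 1795, 1944, 1648 and 1150.3 CPM, and Tgfbi, a matrix protein induced by TGF-beta, at 1351, 1014, 2691, 2316 and 2722 CPM. Arg1, the arginine-degrading enzyme of wound macrophages, was at 29.5, 0, 490.3, 177 and 143 CPM, with log2 ratios of -1.42 and -1.71 against WT TAC, and 1 cell gave 19.9% of the WT TAC reads. Osm, the cytokine oncostatin M that acts on heart muscle cells, was at 252, 274, 380.1, 221 and 409 CPM. Areg, the epidermal growth factor receptor ligand amphiregulin, had 91.5% of its WT sham reads in 1 cell. The 4 repair factors over the filter had medians of -0.88 in CD3e-/- TAC and 0.03 in CD8-depleted TAC against WT TAC, and the lipid-associated and wound macrophage genes -0.28 and -0.47. Spp1, or osteopontin, was at 70.3, 64, 402, 202 and 182 CPM, but 1 cell gave 57.8% of its reads in WT TAC.

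Genes with the highest ratio in CD3e-/- TAC members against WT TAC were Cd72, Mrc1, 1700025G04Rik, Camk2g, Aoah, Exosc5, Glod4 and Ly6a. Values in brackets are log2 ratios against WT TAC, for CD3e-/- TAC first. Cd72, a B cell coreceptor also made by macrophages, was at 0, 9.08, 67.1, 274 and 116 CPM (log2 ratio 1.88), and CD8-depleted TAC lay between (0.71). Mrc1, the mannose receptor of tissue macrophages, was at 35.1, 90.8, 56.7, 221 and 187 CPM (1.79 and 1.57), and 1 cell gave 38.5% of the WT TAC reads. Aoah, which inactivates bacterial lipopolysaccharide, was at 23.2, 48.4, 28.7, 85.9 and 61.9 CPM (1.31). Both Cd72 and Mrc1 were higher in Ccr2-high Ly6c2-low cells, at 334 and 781 CPM, than in any group of members. Of the resident macrophage genes, Lyve1 and Timd4 had no read in any group. The whole list, which also holds C1qb and F13a1, summed to 3811, 4523, 5505, 6693 and 5293 CPM in the 5 groups.

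Lower in CD3e-/- TAC members were Irs2, Adam8, Gm42031, Rnf2, Specc1l, Marcksl1, Basp1 and Chst12. Irs2, an adaptor of insulin signalling, was at 71.1, 73.5, 69.4, 16.9 and 31.6 CPM (-1.56). Adam8, a membrane protease of activated leukocytes, was at 105, 55.8, 183, 61.4 and 115 CPM (-1.44). Marcksl1, a membrane and actin regulator, was at 24.8, 103, 194, 76.6 and 72.3 CPM, and Basp1, a membrane protein of similar charge, at 32.7, 11.7, 232, 94.5 and 97.8 CPM. Marcksl1 and Basp1 were lower in both groups with altered T cells, with log2 ratios of -1.24 and -1.31, and -1.21 and -1.17. Both comparisons used the WT TAC cells, which also held the highest values of both genes. Cd72, Ly6a, Adam8 and Gm42031 lay past 2-fold under all 11 alternatives, and the other 12 genes fell under this limit in at least 1.

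In CD8-depleted TAC, P2ry12, Lpar6, Lpcat3, Nup214, Sucla2, Plekha2, Sertad1 and Akap9 had the highest ratios to WT TAC. P2ry12, a receptor for ADP, was at 33.5, 5.19, 18.4, 34.1 and 52.4 CPM (1.14), and Lpar6, a receptor for lysophosphatidic acid, at 129, 105, 33.9, 55.4 and 84.4 CPM (1.11), both low. The lowest were Cxcl2, Tnfaip3, Marcksl1, Kctd10, Rel, Basp1, Zfand2b and Elmo1, and 3 of these (Cxcl2, Tnfaip3 and Rel) belong to the inflammatory list above. Cxcl2 and Tnfaip3 were the 2 genes past 2-fold under all 11 alternatives.

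Between CD3e-/- TAC and CD8-depleted TAC, the genes higher in CD3e-/- TAC were Pltp, Gm13212, C1qa, Cd72, Rras, Bnip3, H2-Eb1 and H2-Ab1, with log2 ratios between these groups in brackets. Pltp, which moves phospholipids between lipoproteins, was at 117, 127, 149.8, 194 and 57.7 CPM (1.59), and C1qa, a chain of complement C1q, at 0, 267, 653, 785 and 276 CPM (1.48), where WT TAC lay near CD3e-/- TAC in C1qa. Lower were Gm42031, Chst12, Mafg, Tent5c, Uck2, Rhbdf2, Gm49980 and H1f2. Pltp, C1qa and Gm42031 lay past 2-fold under all 11 alternatives.

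Genes that led the members over all 3 other populations, outside the rule, were Ly6a, Spon1, Gm6545, Slfn4, Ly6a2, Oasl1, Treml2, Isg15, Ifi44, Fgl2 and Ccr1. Slfn4, Oasl1, Isg15 and Ifi44 are induced by interferon. Ly6a2 was at 379, 498, 129, 118 and 206 CPM and belongs to the same gene family as Ly6a and Ly6c2, and it was highest in the sham groups. In Ifi44, 1 cell gave 79.8% of the WT TAC reads.

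The remaining lists are given by their medians. Against WT TAC, the median log2 ratios in CD3e-/- TAC and CD8-depleted TAC were -0.07 and 0.05 for monocyte identity genes and 0.29 and 0.00 for resident macrophage genes. Against CD8-depleted TAC, resident macrophage genes in CD3e-/- TAC had a median of 0.45, with 8 of 11 above 0 and 1 past 2-fold higher. Over all genes of that comparison, 1804 of 3820 lay above 0 and 0.497% were past 2-fold higher. Patrolling monocyte genes had medians of 0.03 and -0.21 against WT TAC, and 0.33 for CD3e-/- TAC against CD8-depleted TAC, with 6 of 7 above 0. Colony-stimulating factor and cytokine receptors, chemokine receptors, iron genes, glycolysis genes and Toll-like receptors had medians between -0.11 and 0.10 in both comparisons with WT TAC. Csf1r, the receptor that monocytes need to survive, was at 1026, 833, 1005, 1039 and 959 CPM. Tlr2, a sensor of bacterial lipoproteins, was at 322, 225, 265, 141 and 191 CPM, and Hif1a, the oxygen-sensitive transcription factor, at 135, 62.3, 354, 212 and 355 CPM.

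Markers of other cells were low in the members of each group. The T cell list summed to 1.6, 0.865, 2.43, 18.7 and 64.2 CPM, the NK cell list to 0, 0, 0.101, 0.444 and 8.85 CPM, and the B cell list to 139, 296, 189, 245 and 213 CPM, against 23083 CPM in B cells. One CD8-depleted TAC cell had reads of at least 3 of 8 T cell genes. The neutrophil list summed to 275, 411, 207, 235 and 196 CPM and the dendritic cell list to 134, 37.2, 118, 116 and 81.2 CPM. Fibroblast genes reached at most 7.35 CPM and cardiomyocyte genes at most 41.5 CPM.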

How the data were processed

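Single-cell transcriptomes of CD45+ heart cells were measured by TAS-Seq, an amplification of whole-transcriptome cDNA from cells captured on BD Rhapsody beads, with antibody hashtags for the 5 groups. Per the labels, reads were trimmed with cutadapt 2.10 and aligned with Bowtie2 2.4.2, and the build was GRCm38. The authors counted reads per gene and cell, chose cells at the inflection of the read curve, assigned hashtags and corrected errors in the counts, as the deposited file names tell, and deposited these counts without normalization. The deposited notes tie each hashtag to its group, and 8 columns without a hashtag were not used. Cells with at least 500 genes and a mitochondrial share of at most 0.4 were kept, and columns called doublets were left out of the groups.

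CPM were taken per cell, or from the summed reads of the members of a group. Genes were compared on log2(CPM + 10) among those with 50 CPM or more in either group, with no test, since a group is 1 sample. Adding 10 CPM understates the change of low genes. Shares carry exact Clopper-Pearson and levels exact Poisson 95% intervals. Thinning drew 38944 reads from each cell, the 10th percentile of the kept monocytes and macrophages, and left out shallower cells. Genes were named by rule: the markers and genes of the definition, up to 8 genes each way per comparison that had a read in 30% of the members of the higher group and a log2 ratio of 0.5 or more over cell means, the 4 most abundant genes of each of 33 lists, the 12 leading genes over other populations, and genes the study names. A few genes with wide sham to TAC gaps were added after their values were seen, and some named genes are not reported here. The members and lists were chosen with earlier results of these data known. Promoter and coding sequences came from RefSeq GRCm38.p6 and GENCODE vM1. Alternatives changed the limits of the definition, cell filters, pseudocount, low-value filter, scaling and depth, one at a time. The comparison of levels was tested on simulated data with 200 changed genes and 3847 genes over the filter, for the recovery of known changes. The share of unchanged genes past 2-fold there is not reported here, so that the counts of genes carry no rate of false calls. Python 3.11.15 with numpy 2.4.6, pandas 2.3.3, scipy 1.17.1 and matplotlib 3.10.9 was used.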

Additional observations from a re-analysis of the deposited data

Results flagged for a closer look

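The summed level of inflammatory cytokine and NF-kB genes among the members moved in opposite directions with TAC in the 2 genotypes, and the difference was not tested because each group is 1 sample. In WT hearts the sum was 4749 CPM after sham surgery and 6108 CPM after TAC, a ratio of 1.29. In CD3e-/- hearts it was 5871 CPM after sham surgery and 4257 CPM after TAC, a ratio of 0.725. The sham values rest on 13 and 18 cells. With the median over cells in place of the sum, the WT ratio was 0.979.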

How the results depend on the processing

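Under 8 alternatives the TAC groups stayed above the sham groups, and both groups with altered T cells above WT TAC, but CD3e-/- TAC and CD8-depleted TAC exchanged places in some. Among monocytes and macrophages CD3e-/- TAC was the higher with Ccr2 of 500 CPM (15.5% against 15.4%). With Ly6c2 of 2000 CPM they fell to 0.5% (WT sham), 2.85% (WT TAC), 6.86% (CD3e-/- TAC) and 7.05% (CD8-depleted TAC) of kept cells, and to 0.887%, 4.23%, 9.59% and 10.5% of monocytes and macrophages. With Ly6c2 of 500 CPM, WT TAC reached 6.93% and 10.3%. With Ccr2 of 2000 CPM, WT TAC was at 2.97% and 4.42% and CD8-depleted TAC at 7.49% and 11.1%, where CD3e-/- TAC was at 8.49% and 11.9%. The other 33 values for each denominator moved by less than the counting interval.

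The number of genes past 2-fold depended on the settings. For CD3e-/- TAC against WT TAC, CD8-depleted TAC against WT TAC and CD3e-/- TAC against CD8-depleted TAC, the counts of 52, 35 and 40 became 97, 83 and 65 with 1 CPM added, 13, 6 and 10 with 50 CPM added, 196, 223 and 166 without the low-value filter, and 146, 155 and 120 with a filter at 20 CPM. They were 32, 17 and 23 with Ly6c2 of 500 CPM, 154, 152 and 97 with Ly6c2 of 2000 CPM, and 87, 53 and 64 without members above the 95th percentile of reads. Means over cells gave 84 and 61 and thinned cells 109 and 66 for both comparisons with WT TAC. Genes past 2-fold both before and after a change of setting kept their direction. They were few in places, with 7 of the 35 genes of CD8-depleted TAC shared at Ly6c2 of 500 CPM and 22 at 2000 CPM, and 23 and 31 of the 52 of CD3e-/- TAC. Of 48 named ratios, 9 stayed past 2-fold under all 11 alternatives, and none changed sign. Of the list medians, 732 stayed within 0.25 on the log2 scale and 27 moved further.

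The share of members at 1000 CPM of H2-Ab1 became 0% in WT sham with Ly6c2 of 2000 CPM, 11.1% in CD3e-/- sham with a H2-Ab1 limit of 2000 CPM and 46.6% in CD8-depleted TAC with a limit of 500 CPM. These H2-Ab1 alternatives and those of the inflammatory list were chosen after seeing the data. The WT ratio of TAC to sham for inflammatory and NF-kB genes reversed to 0.979 with the median over cells, and the cause was not tested. No paired analysis was possible because each group is 1 sample without replicate numbers. Depth limits the sham groups most, where 3 reads correspond to 2.4 CPM in WT sham and 1.3 CPM in CD3e-/- sham.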

Other observations

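Gm42031, a long noncoding RNA gene on chromosome 8, followed the genotype in every population examined. It was at 875, 339, 939, 364 and 872 CPM in the members of WT sham, CD3e-/- sham, WT TAC, CD3e-/- TAC and CD8-depleted TAC. In patrolling cells it was at 1062, 293, 1151, 361 and 1035 CPM and in B cells at 1501, 741, 1649.6, 850.3 and 1998 CPM. Cd3e, the targeted gene, lies on chromosome 9. Dmkn and Nifk were the other genes of the members whose WT and CD3e-/- values stood at least 2-fold apart in each pair of groups, and all 3 were chosen after their values were seen. Dmkn was at 47.9, 13, 56.9, 7.11 and 80.5 CPM, but 1 cell gave 70% of its WT sham reads.

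Class II and interferon genes divided the members into 4 sets of cells. With at least 1000 CPM of H2-Ab1 and 10000 CPM of interferon genes were 16 of 71 members in WT TAC, 43 of 94 in CD3e-/- TAC and 28 of 88 in CD8-depleted TAC. With interferon genes alone were 20, 21 and 41 cells, and with neither 28, 13 and 16. Both limits were set after the values were seen, and the groups were not tested against each other.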
